A study of Drosophila melanogaster with 4 samples.

Results

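Arc1 and Arc2 are a pair of neighbouring Drosophila melanogaster genes that encode capsid-forming proteins, and they were chosen here because both rose steeply in larval nervous systems with reprogrammed glia. They are 2 of the 13997 genes listed in at least 1 of the deposited tables, found by their NCBI gene numbers 36595 (Arc1) and 36597 (Arc2). Messenger RNA was sequenced from pooled larval central nervous systems at 96 hours after egg laying, with 70 to 100 nervous systems in each sample. The 2 control samples carried repo-Gal4, a driver active in glia, together with mRFP, a red fluorescent protein that the labels do not name for the other group. In the 2 reprogrammed samples, so named in the labels, repo-Gal4 drove constitutively activated Egfr, the epidermal growth factor receptor, and constitutively activated PI3K92E, which is the catalytic part of a phosphoinositide kinase. Gal4, a transcription factor from yeast, acts on transgenes that carry its binding sites, so expression was directed to glia while the whole nervous system was sequenced. Expression of the activated proteins cannot be told apart from other differences in genetic background, and nothing in the labels says that the pools of a group came from separate crosses, so replicate spread may be technical.

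Both genes descend from the gag gene of a Ty3/gypsy retrotransposon, the part of the element that encodes its capsid shell. Their proteins assemble into virus-like capsids. Fly Arc1 protein binds its own messenger RNA and was found to travel in extracellular vesicles from motor neurons to muscle at the larval neuromuscular junction, where it is needed for synaptic growth. Arc1 is also known for its induction by neuronal activity and for a part in metabolism and in the locomotor response to starvation. Mammalian Arc, an activity-regulated synaptic gene, came from a separate domestication of a related element.

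Levels are in FPKM, that is, fragments per kilobase of transcript relative to the mapped total, so levels of different genes can be compared per length. Log2 changes are reprogrammed minus control on log2(FPKM + 1), a scale that shrinks the changes of low genes, and standard errors are from limma fitted to the 9851 genes that reached 1 FPKM in at least 2 libraries. Calls are at a Benjamini-Hochberg adjusted p under 0.05 over those genes, two-sided, with n = 2 per group. At an unadjusted p under 0.05 there were 3358 of the 9851 genes in either direction. Unadjusted counts given below are to be read beside that number and not beside the shares called. The fit called 405 genes higher (4.11% of those tested) and 801 lower (8.13%). This split moved to 586 and 439 when libraries were scaled to 1 median of FPKM (median scaling), 310 and 1225 when scaled to 1 sum (sum scaling), 369 and 249 when their distributions were equalized (quantile scaling), and 445 and 295 once the dependence on transcript length was taken out (length correction). All tested genes together had a median change of −0.25, which was 0.06, −0.49, −0.04 and −0.05 under those 4 alternatives, so small changes are read against it. The genotype check held: Egfr stood at 8.60 and 11.4 FPKM in control and 58.9 and 49.3 FPKM in reprogrammed samples, and Pi3K92E at 8.28 and 17.1 against 287 and 253 FPKM, with transgene and endogenous transcripts not separated.

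Arc1 went from a gene of moderate level in control nervous systems to one of the most abundant transcripts in the reprogrammed ones. It read 30.02 and 31.7 FPKM in control replicates 1 and 2 and 849 and 671 FPKM in reprogrammed replicates 1 and 2. The groups lie far apart, and each reprogrammed library was between 21.2 and 28.3 times each control library. The group means were 30.8 ± 1.16 and 760 ± 126 FPKM (SD, n = 2), a 24.6-fold ratio of means and a log2 change of 4.57 ± 0.27 (SE). Ranked from the highest, Arc1 was gene 2793 of 12423 and 3086 of 12620 in the controls and gene 156 of 12192 and 193 of 12334 in the reprogrammed libraries. Arc1 was chosen for this rise, so it is described here and not tested, and 11 tested genes had a larger log2 change.

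Arc2, the shorter of the pair, lay below Arc1 in every library and was higher in both reprogrammed libraries too. Its level was 2.78 and 3.01 FPKM in the controls and 59.1 and 37.1 FPKM in the reprogrammed libraries. Both reprogrammed libraries lay above both controls, as they did for Arc1 and for 22.6% of all tested genes. The ratio of a reprogrammed to a control library ran from 12.3 to 21.2. The means were 2.90 ± 0.16 and 48.1 ± 15.5 FPKM (SD, n = 2), a 16.6-fold ratio of means and a log2 change of 3.62 ± 0.35 (SE), the 41st largest among the tested genes. In the controls Arc2 stood in the lower part of the listed genes, with 32.9% and 30.1% of them below it, and in the reprogrammed libraries with 85.4% and 79.9% below it. Arc2 too was chosen for its rise, so these values carry no test.

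**Figure D1:**
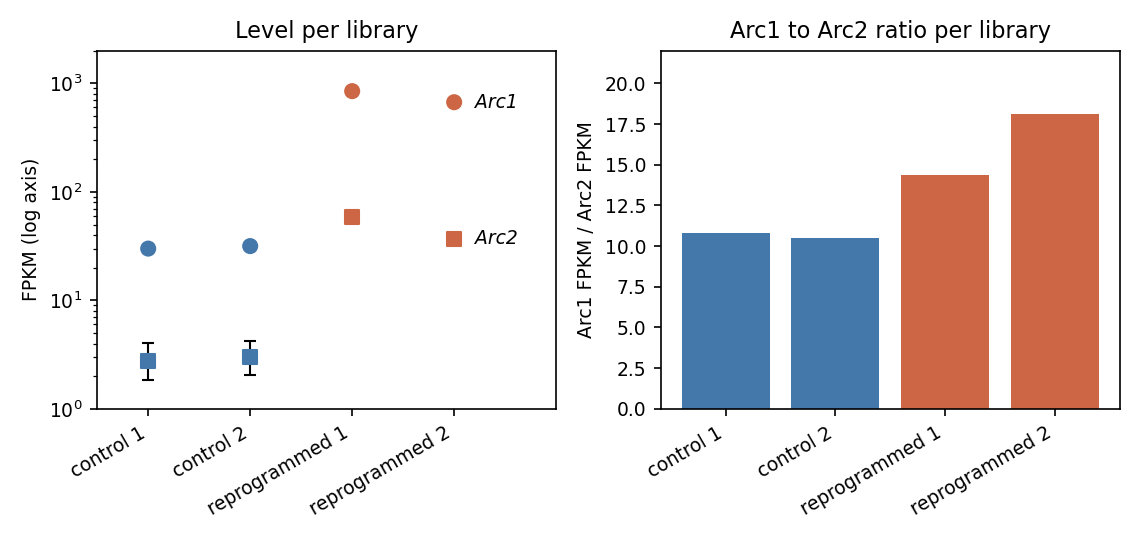
Left, FPKM of Arc1 (circles) and Arc2 (squares) in each of the 4 libraries on a log axis, with 95% Poisson intervals of the estimated reads, which cover counting error only and are smaller than the points for Arc1. Right, the ratio of Arc1 to Arc2 FPKM in each library: it was 10.8 and 10.5 in the controls and 14.4 and 18.1 in the reprogrammed libraries.

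Both genes are listed with a single transcript, NM_137111.3 for Arc1 and NM_137112.2 for Arc2, so the files hold no isoform split. The spliced lengths in the Ensembl BDGP6 annotation are 2371 and 902 bases. From the steps between low FPKM values, 1 FPKM over 1 kilobase was worth between 11.2 and 12.3 reads in the 4 libraries. This puts Arc1 at about 816 and 908 reads in the controls and 22155 and 17938 reads in the reprogrammed libraries. Arc2 rested on far fewer, about 28 and 32 reads in the controls and 570 and 364 in the reprogrammed libraries. The 95% Poisson interval of control Arc2 is 1.85 to 4.02 FPKM in replicate 1 and 2.06 to 4.25 in replicate 2, so its fold change is less precise than that of Arc1. Reads are not independent molecules, and these intervals cover counting error only. Whether reads of 1 of these related genes were assigned to the other was not examined.

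The ratio of Arc1 to Arc2 was close in the controls, at 10.8 and 10.5, and larger in both reprogrammed libraries, at 14.4 and 18.1. The means were 10.7 ± 0.20 and 16.2 ± 2.63 (SD, n = 2). This ratio is free of library scaling, since both values come from the same library. It uses the contrast the genes were chosen on and the few Arc2 reads of the controls, so it is given without a test.

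Within groups, the replicate differences of the members were set beside those of genes of a like level. The control pair differed by 0.07 for Arc1 and 0.09 for Arc2 on the log2(FPKM + 1) scale. Among 1698 genes within 0.5 log2 units of the Arc1 control level the median absolute difference between these libraries was 0.52, and among 1194 genes near the Arc2 level it was 0.61. These values are for FPKM as deposited. With median scaling, an alternative chosen here after seeing the data, control replicate 2 was lower by 0.35 for Arc1 and 0.24 for Arc2, beside median absolute differences of 0.51 and 0.46 for genes of their levels. In the reprogrammed pair replicate 1 exceeded replicate 2 for both genes, by 0.34 for Arc1 and 0.66 for Arc2. The Arc1 difference lay between the median of 0.21 and the 90th percentile of 0.57 of 130 genes of its level, and the Arc2 difference lay above the 90th percentile of 0.52 of 1052 genes, and above it with median scaling as well (0.72 against 0.55). The 95% Poisson intervals of Arc2 in that pair are 54.3 to 64.1 and 33.4 to 41.1 FPKM.

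Genes of a like control level give a scale for the rise, as a description only, since the choice of the members for their rise fixes how such a comparison comes out. Of 856 other tested genes within 0.25 log2 units of the control level of Arc1, the median log2 change was −0.22 and the 5th and 95th percentiles were −1.81 and 1.29. Of 599 such genes around Arc2 the median was −0.55, with percentiles of −1.44 and 1.45. The limma fit called 31 of the 856 higher and 86 lower, and 16 and 40 of the 599, beside 4.11% and 8.13% of all tested genes.

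**Figure D2:**
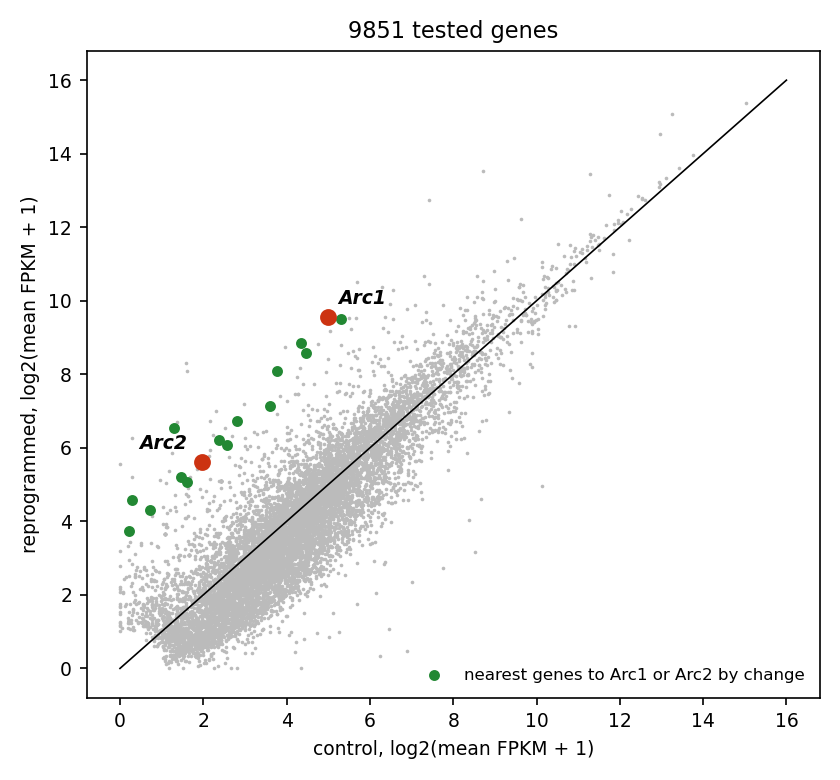
Each grey point is 1 of the 9851 tested genes, with log2(mean FPKM + 1) in control on the horizontal and in reprogrammed samples on the vertical axis, and the line marks equal levels. Arc1 (30.8 against 760 FPKM) and Arc2 (2.90 against 48.1 FPKM) lie well above the line, beside the genes nearest to them by change (green).

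No such rise was seen in the genes around the pair. In the RefSeq annotation of assembly Release 6 plus ISO1 MT, used here for gene order only since the build behind the files is not stated, the 2 genes are separated by the pseudogene CR10102. By the strands in the Ensembl BDGP6 annotation they are transcribed away from each other. No other annotated gene overlaps either of them. Of the 11 nearest annotated genes, 5 on each side and CR10102 between, 7 were listed in at least 1 library and 5 could be tested. Limma called 0 of those 5 higher and 0 lower, against 12.2% of all tested genes called in either direction. At an unadjusted p under 0.05 there were 2 of the 5, beside 3358 of all 9851 tested genes.

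Next to Arc1 lies CG8617, which read 21.4 and 22.03 FPKM in controls and 17.6 and 19.4 in reprogrammed libraries (log2 change −0.22 ± 0.28, limma adjusted p = 0.616). Next to Arc2 lies Tfb1, which encodes a subunit of the general transcription and repair factor TFIIH. Tfb1 read 22.8 and 50.2 FPKM in controls and 21.7 and 23.5 in reprogrammed libraries, a change of −0.56 ± 0.42 (limma adjusted p = 0.396). Neither flanking gene exceeded its highest control value in a reprogrammed library, a value that for Tfb1 rests on control replicate 2 alone. With 1 library left out the change of Tfb1 ran from −1.12 to −0.01. CG8613 changed by −0.25 ± 0.40 (limma adjusted p = 0.707). Under the 3 other scalings and length correction the change of CG8617 ran from −0.48 to 0.10 and that of CG8613 from −0.50 to 0.17, so neither has a settled direction.

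Farther out on the Arc1 side, Shrm, the fly Shroom gene for an actin-binding regulator of cell shape, read 6.59 and 9.71 FPKM in controls and 2.48 and 2.22 in reprogrammed libraries. Its change of −1.43 ± 0.35 missed the threshold (limma adjusted p = 0.0523) and passed it with median scaling (0.0494), with sum scaling (0.0454), with a filter of 5 FPKM (0.0483) and without control replicate 1 (0.0197) or 2 (0.0346). Ih, which encodes a hyperpolarization-activated cation channel, read 7.20 and 13.3 against 20.4 and 21.4 FPKM. Its change of 1.01 ± 0.37 was not called (limma adjusted p = 0.122), but was with median scaling (0.0458), with length correction (0.0337, change 2.03) and without control replicate 2 (0.0211). The other neighbours were near 0: tej reached at most 1.01 FPKM and CG34184 at most 0.26 FPKM, and CR10102, CG34442, CG34443 and CG34444 were listed in none of the tables.

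**Figure D3:**
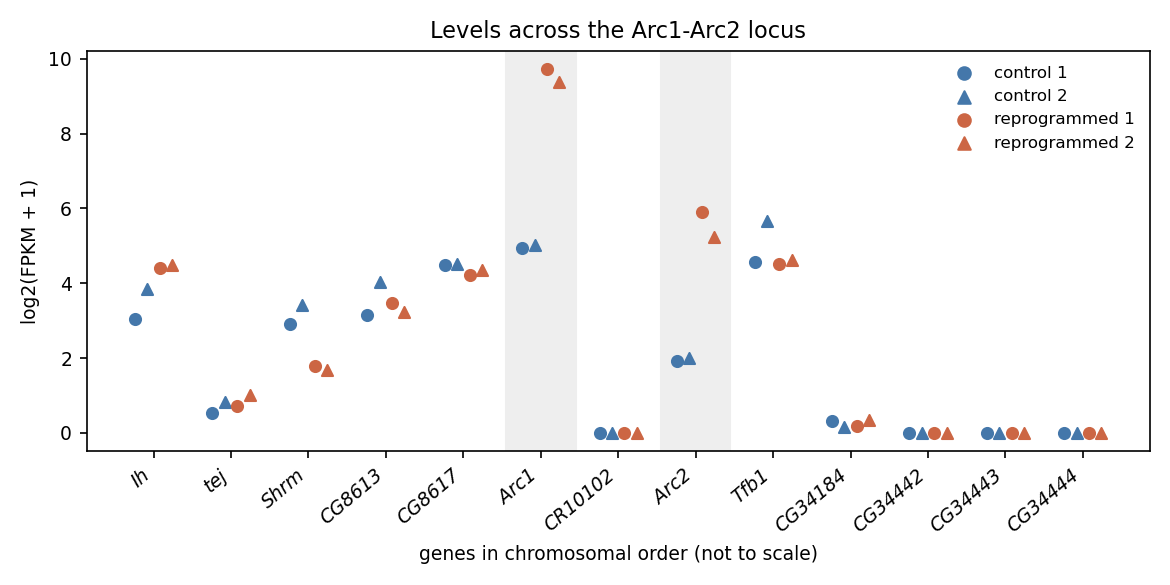
Log2(FPKM + 1) in each library for Arc1, Arc2, the pseudogene between them and 5 annotated genes on each side, in chromosomal order and not to scale. Arc1 and Arc2 (shaded) separate the groups by several units, whereas CG8617 and Tfb1 on their outer sides changed by −0.22 ± 0.28 and −0.56 ± 0.42.

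Genes whose change was most like that of each member were ranked by the Euclidean distance between log2(FPKM + 1) values over the 4 libraries, each centred on the gene's own mean. Arc2 was the 17th nearest gene to Arc1, at a distance of 0.98, and Arc1 the 61st nearest to Arc2. The measure uses the same contrast as the choice of members, so the rise of the nearest genes is built in, as is a like replicate pattern. It is a likeness over 4 libraries only.

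The gene nearest to Arc1 was stl, which encodes an ADAMTS-like metalloprotease known from ovarian follicle formation, at a distance of 0.40. It read 0.30 and 0.14 FPKM in controls and 27.65 and 18.1 in reprogrammed libraries. BaraC, of the Baramicin gene family, came closest to Arc1 in level as well, with 37.8 and 39.9 FPKM against 970 and 475. CG13877, Kaz1-ORFB and pyx, the gene for the heat-gated channel Pyrexia, were also among the 8 nearest. In the annotation pyx overlaps both CG13877 and Kaz1-ORFB, so without a stated strand-specific count reads from the shared stretches cannot be told apart. The remaining ones were the transgene target Pi3K92E and the glutathione S-transferase genes GstD2 and GstE7, whose families hold close paralogs that can share reads.

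Nearest to Arc2 was kumpel, a sodium-coupled solute transporter gene of glia, at a distance of 0.17, which overlaps the annotated gene CG14546. It read 11.04 and 11.4 FPKM in controls and 163 and 118 in reprogrammed libraries. Its close control pair and lower reprogrammed replicate 2 resemble those of Arc2, a likeness that the distance selects for. DAT, the dopamine transporter gene, was the 5th nearest, with 2.46 and 1.60 FPKM against 39.5 and 26.3. GstE7 and pyx stood on this list as well as on that of Arc1. The other 4 were CG2065, the cytochrome P450 genes Cyp6a17 and Cyp9h1, and lncRNA:CR45914.

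Arc1 belongs to the genes that neuronal activity induces in flies, and the other genes of that kind did not rise as a group. The part of neuronal activity in the rise of the members was not tested. Of 16 on the list, 15 could be tested: 1 was higher, 1 lower and 13 not called, against 4.11% and 8.13% of all tested genes. At an unadjusted p under 0.05 the counts were 2 and 6, beside 3358 of all 9851 tested genes in either direction. The list median was −0.42, against −0.25 for all tested genes. It ran from −0.68 with sum scaling to 0.08 with length correction, so the list has no settled direction. With 1 library left out, between 0 and 2 of its genes were higher and between 0 and 7 lower.

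Hr38, the nuclear receptor gene most used as an activity reporter in insect brains, stayed below the filter in all libraries, at 0.36 and 0.45 FPKM in controls and 0.40 and 0.42 in reprogrammed samples. The libraries show no separation for it. The early-response transcription factor sr read 1.56 and 1.80 against 3.34 and 1.84 FPKM (change 0.39 ± 0.35, limma adjusted p = 0.481). The AP-1 genes kay and Jra changed by 0.32 ± 0.27 and 0.26 ± 0.40 and were not called.

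CG13868 was the member called higher, from 25.8 and 31.6 to 73.1 and 63.1 FPKM (1.22 ± 0.27, limma adjusted p = 0.0459). That call was lost with sum scaling (0.0780), with quantile scaling (0.0544) and without reprogrammed replicate 1 (0.494) or 2 (0.268). CG14024 was called lower, from 42.0 and 31.7 to 9.74 and 11.1 FPKM (−1.72 ± 0.30, limma adjusted p = 0.0363), and lost its call with median scaling (0.0605), with quantile scaling (0.0565), with length correction (0.0687) and without reprogrammed replicate 1 (0.287) or 2 (0.127). CG17778 read 8.98 and 10.7 against 58.0 and 22.7 FPKM, the largest increase of the list at 1.79 ± 0.48, and was not called (limma adjusted p = 0.0631). It passed without reprogrammed replicate 2 (0.0298). The remaining members, Atf3, CG46385, cbt, CrebB, CrebA, puc, CG8910, CG13055 and CG14186, had changes between −1.22 and 0.78 with no call.

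**Figure D4:**
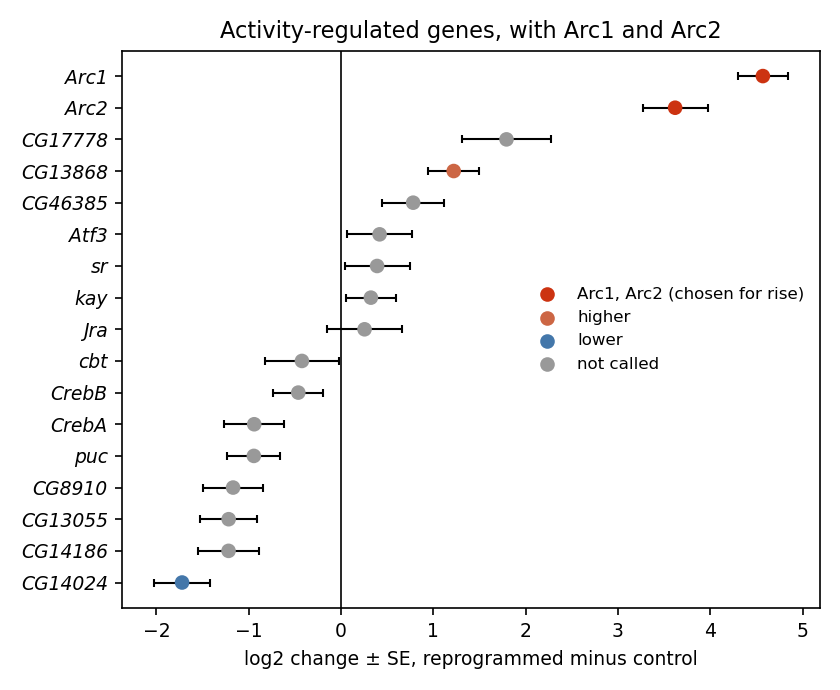
Log2 change ± SE (limma, n = 2 per group) of the 15 tested activity-regulated genes and of Arc1 and Arc2. The listed genes lie between −1.72 (CG14024, lower) and 1.79 (CG17778, not called), below Arc2 at 3.62 and Arc1 at 4.57, which were chosen for their rise.

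The other listed genes derived from retroelements were low and had no call. Gagr, from another gag gene, read 2.21 and 4.21 FPKM in controls and 1.58 and 2.13 in reprogrammed libraries (−0.53 ± 0.37, limma adjusted p = 0.376). Iris, from an envelope gene, reached 1 FPKM in control replicate 2 alone, at 1.83, and was not tested. Its other values were 0.30, 0.26 and 0.15 FPKM.

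Of the lists set beside Arc1 transfer at the synapse, that of vesicle genes was mixed, with 17 changes above 0 and 14 below. In the RNA granule list 33 of 34 changes were below 0, and in the Wnt and BMP list 11 of 12. The median change of 31 ESCRT, endosome and vesicle genes, which form and release the vesicles, was 0.04. It was −0.23 with sum scaling, 0.37 with median scaling and 0.22 with length correction. Limma called 1 of them lower and 0 higher (4 and 2 at an unadjusted p under 0.05), against 8.13% and 4.11% of all tested genes. The lower one was Syt4, a synaptotagmin of postsynaptic vesicles, from 163 and 114 to 27.0 and 33.3 FPKM (−2.14 ± 0.31, limma adjusted p = 0.0324; 0.0501 with median scaling, 0.0570 with length correction and 0.0736 without reprogrammed replicate 1). Tsp42Ee, a tetraspanin, read 451 and 571 against 1416 and 1146 FPKM and was not called (1.32 ± 0.33, limma adjusted p = 0.0559). It passed with a filter of 5 FPKM (0.0481) and without control replicate 1 (0.0252) or 2 (0.0222). With 1 library left out, between 0 and 5 genes of this list were higher and between 0 and 5 lower.

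Of 34 genes of messenger RNA transport granules, 6 were lower and 0 higher, against 8.13% and 4.11% of all tested genes. At an unadjusted p under 0.05 the counts were 18 and 0, and the median change was −0.85. With length correction that median was −0.24, with 14 genes above 0 and 20 below. The lower genes included stau, whose double-stranded RNA binding protein localizes transcripts, from 45.3 and 54.7 to 15.97 and 17.3 FPKM (−1.53 ± 0.28, limma adjusted p = 0.0369). Its call was lost with length correction (0.113) and without reprogrammed replicate 1 (0.326) or 2 (0.170). The lower genes of this list numbered 3 with median scaling, 13 with sum scaling, 0 with length correction, 18 without control replicate 1, 17 without control replicate 2, 0 without reprogrammed replicate 1 and 3 without reprogrammed replicate 2. The neuronal RNA-binding genes elav and fne are among them. Of 12 Wnt and BMP genes of the junction 2 were lower and 0 higher, with 6 and 1 at an unadjusted p under 0.05, namely Syt4 and the ligand gene wg, which read 5.76 and 9.51 against 0.93 and 1.52 FPKM (−1.93 ± 0.38, limma adjusted p = 0.0387; 0.313 without reprogrammed replicate 1 and 0.0892 without replicate 2). With 1 library left out the lower genes of this list numbered between 0 and 8. Its counts too stand beside 8.13% lower and 4.11% higher over all tested genes. The median change of the list was −0.75, and −0.10 with length correction.

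Markers of neurons, the cells Arc1 is best known from, were lower. Of 27 neuronal markers 21 were lower and 0 higher (26 and 0 at an unadjusted p under 0.05), against 8.13% and 4.11% of all tested genes. Their median change was −1.68 (−0.73 with length correction). Their summed level was 1770 and 1586 FPKM in controls against 449 and 621 in reprogrammed libraries. The lower count was 7 with median scaling, 24 with sum scaling, 7 with quantile scaling, 2 with length correction, 27 without control replicate 1, 23 without control replicate 2, 2 without reprogrammed replicate 1 and 8 without reprogrammed replicate 2. Every tested neuronal marker was below its control values in both reprogrammed libraries, where 40.8% of all tested genes were. In bulk samples fewer cells of a type and less RNA per cell cannot be told apart. Among neurosecretory genes the peptide genes Hug (−2.52 ± 0.48) and Dh44 (−2.32 ± 0.43) were lower. Of 27 such genes 11 were lower and 0 higher (19 and 0 at an unadjusted p under 0.05), beside 8.13% and 4.11% of all tested genes. That count was 7 with quantile scaling, 17 without control replicate 1, 1 without reprogrammed replicate 1 and 5 without reprogrammed replicate 2.

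Part of the glial markers rose. Of 23, 8 were higher and 1 lower, the fate switch gcm, beside 4.11% and 8.13% of all tested genes. At an unadjusted p under 0.05 the counts were 15 and 2, and 19 of the 23 changes were above 0, with a median of 1.31. The summed level was 1230 and 1516 FPKM in controls and 4292 and 3954 in reprogrammed libraries. The higher count was 13 with median scaling, 12 with length correction, 13 without control replicate 1, 18 without control replicate 2 and 3 without reprogrammed replicate 1 or 2. The steepest was moody, a blood-brain barrier receptor gene, at 3.36 ± 0.30, below the change of Arc1 and close to that of Arc2 (3.62 ± 0.35). The part of the glial change in the rise of the members was not tested.

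Several markers of other tissues varied far more between replicates than the members did. The summed level of 21 gut genes was 125 and 17.1 FPKM in the controls and 239 and 11.9 in the reprogrammed libraries, with 12 of the genes below 1 FPKM in every library. The trypsin-like protease gene Jon25Bi was missing from the tables of both second replicates and read 17.6 and 70.8 FPKM in the first ones. Arc1 read 30.02 and 31.7 FPKM in the same control pair, and was the higher in reprogrammed replicate 1, as the gut sum was. The salivary glue gene Sgs7 read 734 FPKM in control replicate 1 and was missing in control replicate 2, and the fat body list summed to 798, 1781, 423 and 1783 FPKM in control 1, control 2, reprogrammed 1 and reprogrammed 2. Of 17 tested muscle genes 0 were higher and 0 lower in limma (0 and 2 at an unadjusted p under 0.05; 8 lower without control replicate 1 and 4 without reprogrammed replicate 2), with sums of 372, 1046, 246 and 462 FPKM in that order. The part of other tissues in the rise of the members was not tested.

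Of the remaining marker lists, haemocyte genes had 2 of 17 lower, trachea and cuticle genes 3 of 16, imaginal disc genes 4 of 18 and salivary gland genes 1 of 5, beside 8.13% of all tested genes, with none higher in limma. At an unadjusted p under 0.05 these lists had 7, 7, 16 and 2 lower and 1, 1, 0 and 0 higher genes, beside 3358 of all 9851 in either direction. All 18 imaginal disc changes were below 0 (17 of 18 with median scaling, quantile scaling or length correction). Ring gland genes had 0 of 11 called (1 higher and 4 lower at an unadjusted p under 0.05), gut genes 0 of 7 (0 and 0), and fat body genes 1 higher and 1 lower of 13. With all 4 libraries, no tested gene of any marker list had an increase as large as that of Arc2. The members were chosen for their large rise, so this order is largely built in and is no result about the lists. Without control replicate 2 the glial marker Mdr65 rose by 3.71 and Arc2 by 3.66. Without reprogrammed replicate 2 the gut gene Jon25Bi rose by 4.06 and Arc2 by 3.95. The order of Arc2 and these markers is thus not settled. The lower counts of these first 4 lists were 7, 9, 15 and 2 without control replicate 1. Without reprogrammed replicate 1, no haemocyte, trachea and cuticle, imaginal disc or salivary gland gene was called.

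**Figure D5:**
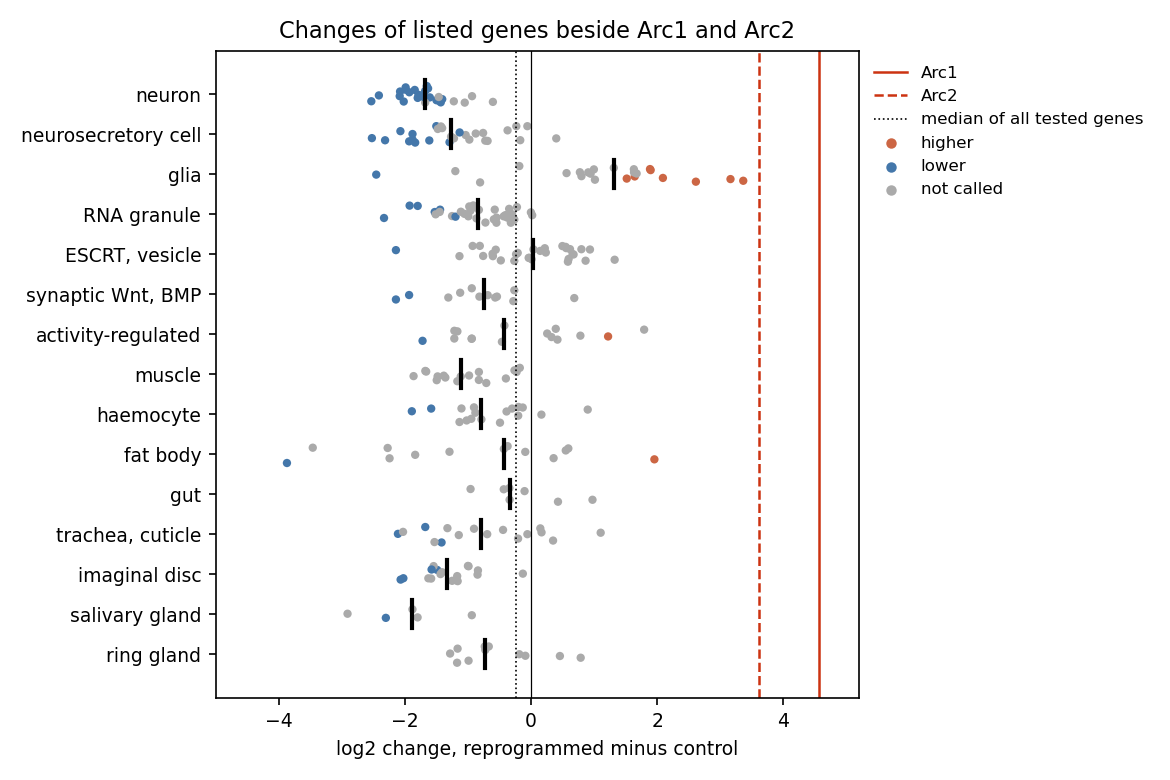
Log2 change of every tested gene of each list (points, coloured by the limma call), the list median (black bar) and the median of all tested genes (dotted, −0.25), with Arc1 at 4.57 and Arc2 at 3.62 as red lines. Neuronal markers lie at a median of −1.68 and glial markers at 1.31. No listed gene reaches the Arc2 line, which the choice of the members for their rise makes likely beforehand.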

How the data were processed

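The authors deposited FPKM values per gene, rounded to 2 decimals, in 1 table per sample, per the file headers. Oligo(dT) beads selected the messenger RNA before random-primed cDNA synthesis, per the labels' protocols, which name no strand-marking step. The submitters' processing notes name Bowtie2 and HISAT. The quantifier is not given in the sources used here, nor is the genome build, and coordinates are left out.

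Genes missing from a table were set to 0. Symbols came from RefSeq gene numbers, with 13960 matched by number, 2 by transcript accession and 35 without a name. Groups came from the sample titles. For genes at 1 FPKM in 2 or more libraries, log2(FPKM + 1) was fitted in limma (lmFit, eBayes with trend; 2 residual and 3.715 prior degrees of freedom), with group as the only term. The fit was tried on simulated data with equal noise in all libraries, unlike the replicate pairs here, whose spread differed between groups. That trial checks the code and not how reliable the calls are. Reads per FPKM were estimated from single-transcript genes longer than 600 bases, where between 92.9% and 94.2% of low values came out whole within 0.15 reads. Genes with several transcripts have no such steps, and a count test was not run.

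The members and lists were chosen with earlier results of these data known. Of 318 list names 309 matched. Genes named were the members, the transgene targets, the 8 nearest genes to each member, the 5 annotated neighbours on each side, all activity-regulated and retroelement-derived genes, and from each other list up to 4 called genes of largest change and 2 uncalled ones of highest FPKM. Alternatives were median, sum and quantile scaling, length correction (loess, span 0.5), a pseudocount of 0.1, a filter of 5 FPKM or none, the replicate number as a block, and each library left out. The tools were R 4.3.3 with limma 3.58.1, and Python 3.11.15 with pandas 2.3.3, numpy 2.4.6, matplotlib 3.10.9 and scipy 1.17.1.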

Additional observations from a re-analysis of the deposited data

How the results depend on the processing

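The log2 change of Arc1 was 4.91 with median scaling, 4.3 with sum scaling, 4.8 with length correction, and 4.40 to 4.74 with 1 library left out. That of Arc2 was 3.97 with a pseudocount of 0.1 and 3.29 to 3.95 with 1 library left out. In the other settings tried both moved by less than the spread between replicates. Genes called higher and lower numbered 0 and 0 with no filter (3629 at an unadjusted p under 0.05, smallest limma adjusted p 0.0843), so every call named above was lost there. Lower genes numbered 439 with median, 1225 with sum and 249 with quantile scaling, and 295 with length correction. With 1 library left out, higher genes ran from 181 to 1265 and lower genes from 75 to 3313. The lone library of a group is then assumed to vary like the remaining pair. With a reprogrammed library left out, the changes of 3 uncalled genes ran from −2.11 to 4.06 (Jon25Bi), from −4.15 to 2.23 (Jon65Aiv) and from −3.19 to 3.004 (Obp99b), and with a control library left out that of Sgs7 ran from −6.56 to 2.96, each with a call at both ends. The replicate numbers were shared between groups, but same-numbered libraries did not deviate together (correlation −0.03), and with the replicate block, which leaves 1 residual degree of freedom, 872 genes were higher and 1907 lower, and 9 muscle genes were lower in place of 0. The cause of these shifts was not tested. Depth limits Arc2 in the controls most, at about 28 and 32 reads.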
